A study of Mus musculus with 9 samples.

Results

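Pancreas RNA from S6k2-RK mice was compared directly with pancreas RNA from Snd1-KI mice, with no wild-type (WT) library in the contrast. The comparison used 6 of the 9 libraries of the study, 3 S6k2-RK and 3 Snd1-KI, each from 1 mouse aged 8 weeks. The 3 WT littermate libraries are given below as levels only. Every animal was killed with CO2, and a ground powder of the snap-frozen pancreas was submitted for poly(A) RNA sequencing. The S6k2-RK mice carry an allele of S6k2 that the labels call RK and do not spell out, and the Snd1-KI mice carry a knock-in allele of Snd1. The labels do not give zygosity, sex or strain, or whether the mutant lines share litters, so any difference of line, litter or housing cannot be told apart from the alleles. The study's title places both alleles in 1 question, the binding of methylated S6K2 by the Tudor domain of SND1. Setting one mutant against the other asks where pancreas RNA differs between a change in the kinase and a change in its reader.

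S6K2, encoded by Rps6kb2, is a ribosomal protein S6 kinase that acts below mTORC1, the kinase complex that couples nutrients to protein synthesis. SND1 is a Tudor and staphylococcal-nuclease domain protein whose Tudor domain binds methylated arginine, and which has roles in RNA processing and transcription. Most RNA of the pancreas comes from acinar cells, which make digestive enzymes as inactive precursors, store them in zymogen granules and release them into the duct. Trypsin made from trypsinogen switches on the other precursors, and Spink1 is the trypsin inhibitor that restrains this step inside the gland.

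Genes were tested where their 6 normalized counts averaged 10 or more, which left 11717 of the 46078 in the table, on the log2(normalized count + 1) scale. This scale understates the change of low genes. The libraries held 14068683 to 16756099 recovered reads in S6k2-RK and 14814682 to 21034501 in Snd1-KI. The number of genes with any read was 15556 ± 339 (SD, n = 3) in S6k2-RK and 16271 ± 238 (SD, n = 3) in Snd1-KI, and the groups did not overlap (exact permutation test, two-sided p = 0.1, the smallest that 3 against 3 can give). The first principal component, with 30.8% of the variance, placed S6k2-RK replicate 1 at -0.84, between the 3 Snd1-KI libraries at -18.99 to -14.32 and the other S6k2-RK libraries at 19.05 and 32.1. Scaling every library to the same total instead of the authors' size factors moved the median log2 difference of all genes from -0.00 to -0.23. Bulk tissue was measured, so fewer cells of a type and less RNA per cell cannot be told apart in any result below.

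The targeted genes did not pass between the groups. Snd1 stood at 2316, 3147 and 2940 normalized counts in S6k2-RK and at 2808, 3181 and 2722 in Snd1-KI, and the groups overlapped (log2 difference -0.06 ± 0.12 SE, limma adjusted p = 0.904). Leaving out S6k2-RK replicate 1 turned the sign of that difference to 0.0706. Rps6kb2 stood at 56.0, 25.5 and 24.7 in S6k2-RK and at 42.4, 52.7 and 36.4 in Snd1-KI (log2 difference -0.39 ± 0.31 SE, adjusted p = 0.712). Rps6kb1, the paralogous S6 kinase gene, differed by -0.03 ± 0.11 SE (adjusted p = 0.958). Counts per gene do not show which allele was transcribed, so these levels do not check a change of sequence.

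Few genes passed between the mutants, and a gene that did not pass may still differ. At a limma adjusted p below 0.05, 10 genes were higher in S6k2-RK (0.0853% of genes tested) and 8 were lower (0.0683%), 18 in all (0.154%). The higher genes were 1810009J06Rik, Gm2663, Xlr3a, Prss3l, Lars2, Nupr1, Gm13736, Spink1, Tc2n and Tpt1. The lower genes were Amy2a2, Amy2a4, Gm29216, Serpina6, Serpina10, BC034090, Klk1b11 and Cela3a. At an unadjusted p below 0.05, 536 genes were higher (4.57%) and 647 lower (5.52%), 10.1% in all. The 3 S6k2-RK libraries all lay above the Snd1-KI libraries for 7.92% of genes and all below them for 7.24%. Under equal library totals, where the median of all genes was -0.23, the split was 3 higher and 12 lower. The number of genes that passed was 89 without S6k2-RK replicate 1, 96 without S6k2-RK replicate 2 and 7 without S6k2-RK replicate 3, and it was 10, 7 and 11 without Snd1-KI replicates 1, 2 and 3. Without the mean-variance trend, limma passed 0 genes, with 1001 at an unadjusted p below 0.05, while edgeR passed 31 and DESeq2 66. Of the 18 genes, all but Tpt1 passed with edgeR too, 17 passed with DESeq2, and none changed sign under any alternative.

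**Figure D1:**
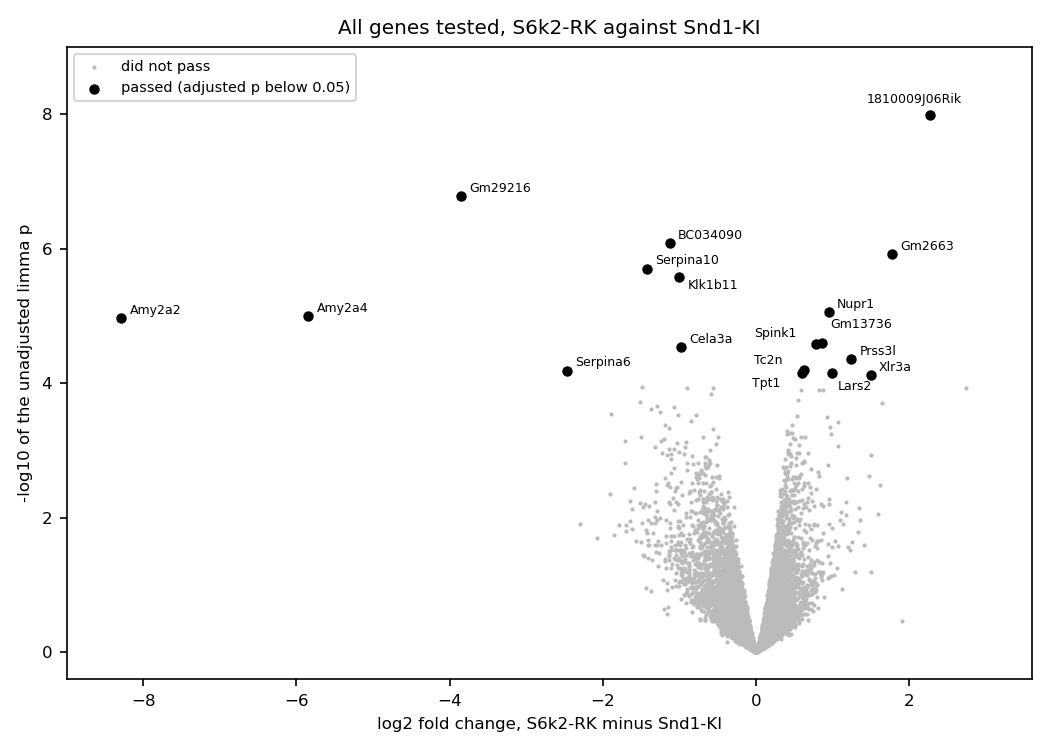
Log2 difference between S6k2-RK and Snd1-KI (x axis) against -log10 of the unadjusted limma p (y axis) for the 11717 genes tested, with 1 point per gene and the 18 that passed in black. 10 of these lie to the right (higher in S6k2-RK) and 8 to the left, and the amylase copies Amy2a2 and Amy2a4 lie farthest left.

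**Figure D2:**
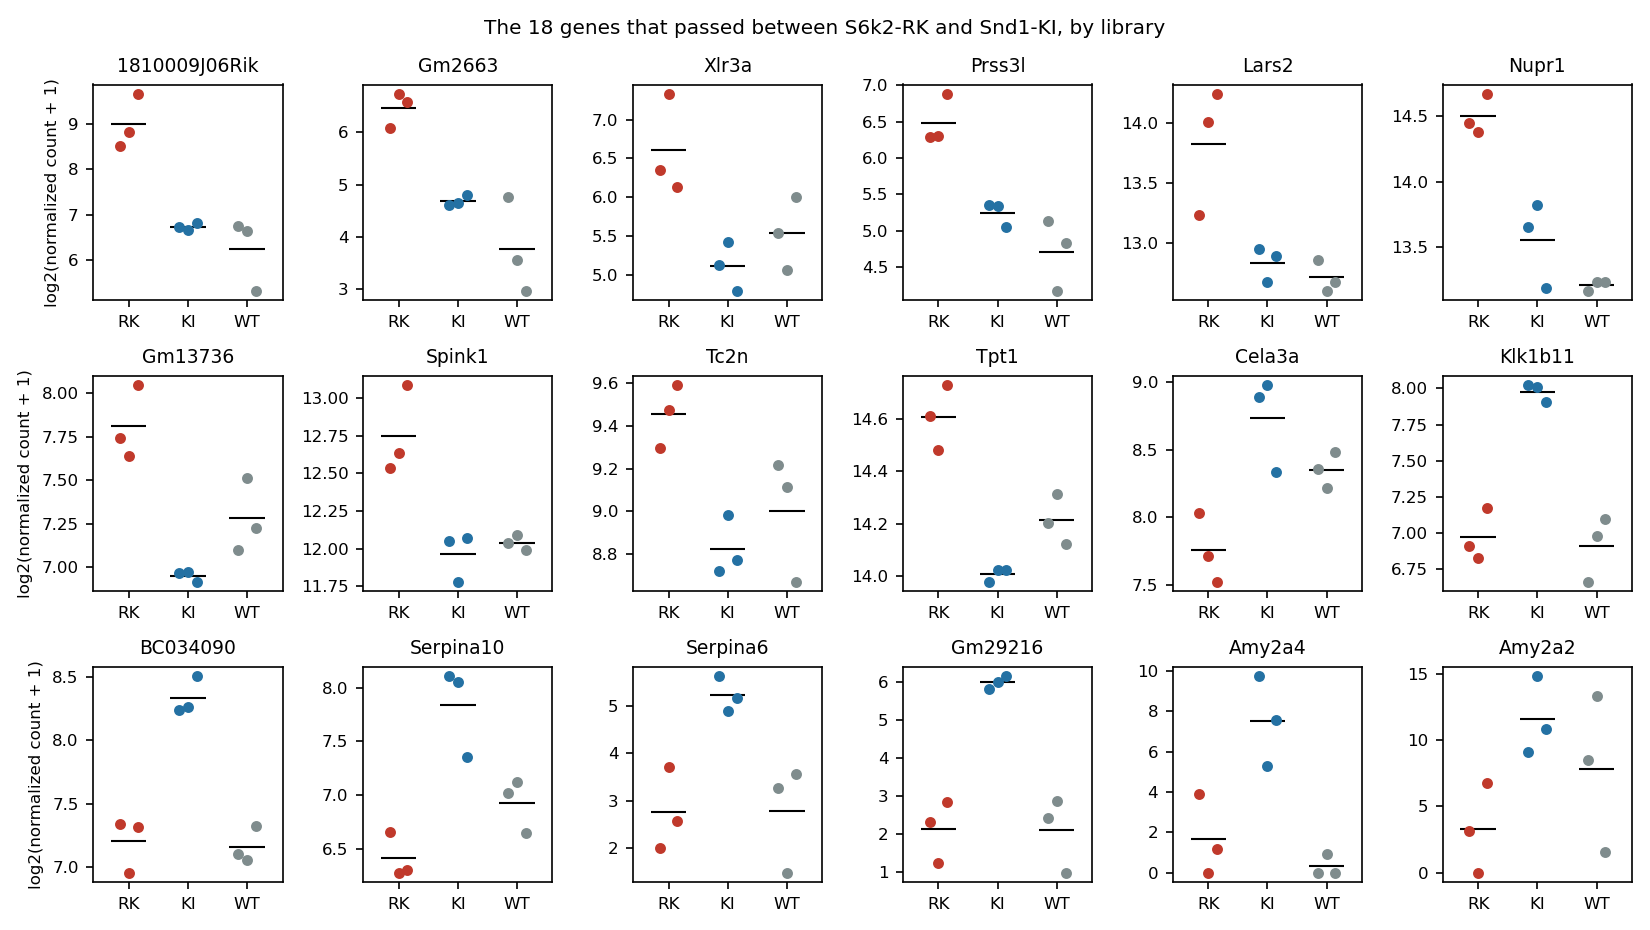
Level of each of the 18 genes in every library, as log2(normalized count + 1), with 1 point per mouse and a line at the mean of 3 points, for S6k2-RK (RK), Snd1-KI (KI) and WT. In all 18 panels the RK points do not overlap the KI points, and each panel has its own axis, which does not start at 0.

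The trypsinogen genes and the trypsin inhibitor had higher values in S6k2-RK than in Snd1-KI, and some passed. The list of trypsinogens with Spink1 and Ctrc, a chymotrypsin that degrades trypsin, had 10 of 12 members tested. All 10 differences were positive. Of these, 3 passed (Gm2663, Prss3l and Spink1), against 0.0853% of all genes, and 8 had an unadjusted p below 0.05, against 4.57%. Some transcripts of the list are closely similar, such as Try4 and Try5 (97.13% identical over 801 bases). The members are thus not independent. The median log2 difference was 0.53, against -0.00 over all genes tested. Under equal library totals these 2 medians were 0.30 and -0.23. It ranged from 0.43 without S6k2-RK replicate 3 to 0.68 without Snd1-KI replicate 2. Of the list, 6 members passed without S6k2-RK replicate 1, and 1 passed without S6k2-RK replicate 3 or any 1 Snd1-KI library. The trypsinogens of the list, without Spink1 and Ctrc, took 8.05%, 7.97% and 9.19% of all normalized counts in S6k2-RK. In Snd1-KI they took 7.42%, 7.35% and 7.16%, without overlap (exact permutation p = 0.1, two-sided). WT libraries stood lower, at 6.60% to 6.80%.

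The gene with the smallest p was 1810009J06Rik on chromosome 6 (GRCm38 chr6:40964754-40968435), which lies outside the naming rule and was chosen after its values were seen. Its normalized counts were 366, 451 and 799 in S6k2-RK, 105, 99.9 and 111 in Snd1-KI, and 107, 98.2 and 39.3 in WT. Every S6k2-RK library was above every Snd1-KI and WT library, and the fold change was 4.80 (log2 difference 2.26 ± 0.21 SE, limma adjusted p = 0.000121). Gm2663, its near copy (chr6:40995830-40999479), stood at 67.0, 105 and 94.0 in S6k2-RK and at 23.4, 24.0 and 26.7 in Snd1-KI, a fold of 3.43 (log2 difference 1.78 ± 0.23 SE, adjusted p = 0.00352). The transcripts of this pair are 99.42% identical over 862 bases, so reads could be split between them and the genes are not independent. The files describe neither gene's product. The transcript of Gm2663 is 73.55% identical to that of Prss2, anionic trypsinogen, over 717 bases. Both calls held when each library was left out in turn, and that of Gm2663 ended in a fit of all 9 libraries (adjusted p = 0.0653).

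Prss3l, described in the file as serine protease 3 like, stood at 77.0, 77.8 and 116 in S6k2-RK and at 39.8, 39.5 and 32.1 in Snd1-KI (log2 difference 1.24 ± 0.22 SE, adjusted p = 0.0395). Its transcript is 98.78% identical to that of Prss3 over 821 bases, and Prss3 overlapped, with 32.2 as its lowest S6k2-RK library and 34.9 as its highest Snd1-KI library. The Prss3l transcript is also 95.88% identical to that of Prss1 over 800 bases and 90.84% to that of Try4 over 797. Reads could thus be split between Prss3l and these genes, of which Try4 had far higher counts. Spink1 (chromosome 18) stood at 5936, 6352 and 8698 in S6k2-RK, at 4245, 3515 and 4289 in Snd1-KI, and at 4198, 4354 and 4063 in WT. The fold was 1.72 (log2 difference 0.79 ± 0.13 SE, adjusted p = 0.0274), and WT lay inside the Snd1-KI range or just above it. No near copy of the Spink1 transcript was found. The Prss3l and Spink1 calls ended without S6k2-RK replicate 3 or without any Snd1-KI library, with adjusted p up to 0.311 and 0.213, and under equal library totals.

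The abundant trypsinogens moved less and did not pass. Try4 stood at 20283, 23643 and 25025 against 15470, 19684 and 14524 (log2 difference 0.48, adjusted p = 0.203). Try5 stood at 537943, 543001 and 850749 against 447208, 451319 and 428398 (log2 difference 0.51, adjusted p = 0.526). Prss2 stood at 774399, 918960 and 995957 against 674781, 711436 and 679388 (log2 difference 0.37, adjusted p = 0.66). In all 3 of these genes the groups did not overlap, and they were named after their values were seen. Try10 (0.55, adjusted p = 0.162) and Ctrc (0.47, adjusted p = 0.413) had values on the same side.

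The start regions of Gm2663 and Prss2 are shown because these genes lie on the same stretch of chromosome 6 and differ in the size of their change. Each is the 200 bases before the annotated start, from RefSeq (GRCm38.p6), Gm2663 at chr6:40999480-40999679 on the minus strand and Prss2 at chr6:41521576-41521775 on the plus strand. Capitals mark CACCTG or TTTCCC, or their reverse complements, the 2 half-sites bound by the acinar factor PTF1. Gm2663 holds 1 match to TTTCCC and none to CACCTG, whereas Prss2 holds both. Matches are common, since 13.9% of 32851 promoters of this length hold CACCTG and 17.8% hold TTTCCC.
Gm2663: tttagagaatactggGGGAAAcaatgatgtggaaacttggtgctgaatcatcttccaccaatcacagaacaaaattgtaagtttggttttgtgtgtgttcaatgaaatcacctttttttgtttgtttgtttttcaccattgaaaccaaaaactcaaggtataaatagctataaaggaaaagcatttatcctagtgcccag
Prss2: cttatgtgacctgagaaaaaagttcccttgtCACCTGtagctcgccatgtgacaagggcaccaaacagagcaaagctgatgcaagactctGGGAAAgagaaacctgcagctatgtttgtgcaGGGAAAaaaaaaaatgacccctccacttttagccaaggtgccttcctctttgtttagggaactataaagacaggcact

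The chromosome 6 genes that passed lie near Snd1 itself. 1810009J06Rik, Gm2663 and Prss3l start 12.0, 12.1 and 12.5 Mb beyond the end of Snd1. Within 20 Mb of Snd1, 151 genes were tested, these 3 passed and 24 had an unadjusted p below 0.05 (15.9%, against 10.1% of all genes). That window takes in the trypsinogen genes of chromosome 6, and Try10, Try4 and Prss3 are among the 24 too. The higher share is thus not independent of the trypsinogen result above. Within 5 Mb, 37 were tested and 0 passed (limma), with 3 at an unadjusted p below 0.05. Within 20 Mb of Rps6kb2, 0 of 218 passed, with 19 at an unadjusted p below 0.05. For all 3 genes the WT libraries overlapped Snd1-KI only, with WT at 26.2, 10.8 and 6.88 for Gm2663 and at 34.0, 17.1 and 27.5 for Prss3l. Sequence that flanks the engineered Snd1 allele cannot be told apart from the allele in this design, and its part in these values was not tested.

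Other secreted acinar products showed small positive differences. Among granule proteins, 1 of 11 tested members passed (Spink1), 10 differences were positive and the median was 0.27. Under equal library totals it was 0.03, with that of all genes at -0.23. Without S6k2-RK replicate 3 the median was 0.16 with 0 members passing, and without replicate 1 it was 0.37 with 3 passing. Without any 1 Snd1-KI library 0 passed. Sycn, syncollin of the granule membrane, stood at 72417, 85722 and 96041 against 52996, 50340 and 59241, without overlap (log2 difference 0.64, adjusted p = 0.136). Cuzd1, a granule membrane protein, differed by 0.48 (adjusted p = 0.264). None of 6 lipase genes passed, with 1 at an unadjusted p below 0.05 and a median of 0.20, which was 0.30 without S6k2-RK replicate 1. Pla2g1b, pancreatic phospholipase A2, differed by 0.43 (adjusted p = 0.266) and Clps, colipase, by 0.41 (adjusted p = 0.518).

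Cela3a, a chymotrypsin-like elastase, went the other way. It stood at 261, 209 and 183 in S6k2-RK, at 474, 503 and 323 in Snd1-KI and at 326, 297 and 358 in WT (log2 difference -0.98 ± 0.17 SE, adjusted p = 0.0286). WT lay between the mutants, overlapping Snd1-KI only. Among 8 chymotrypsins and elastases it was the only one to pass, and 7 differences were positive. Its nearest relative, Cela3b, matches 90.11% of its transcript's bases. The call ended without S6k2-RK replicate 3 or without Snd1-KI replicate 1 or 2 (adjusted p up to 0.266). All enzyme and granule genes together took 77.6% ± 1.11 of normalized counts in S6k2-RK and 76.3% ± 0.419 in Snd1-KI (SD, n = 3 each), with overlap (exact permutation p = 0.3).

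The amylase copies gave the largest differences, and they varied strongly between mice. Amy2a2 stood at 8.00, 0 and 108 normalized counts in S6k2-RK and at 539, 29096 and 1879 in Snd1-KI, from 95 reads against 39949 (log2 difference -8.28 ± 1.31 SE, adjusted p = 0.0140). WT libraries spanned both groups, at 357, 10545 and 1.97. Amy2a4 stood at 14.0, 0 and 1.24 in S6k2-RK and at 858, 37.9 and 190 in Snd1-KI, from 15 reads against 1218 (log2 difference -5.85 ± 0.92 SE, adjusted p = 0.0140). WT held 1 Amy2a4 read in all. S6k2-RK replicate 2 had 0 reads of both genes, where 3 reads, the limit that a count of 0 allows, would be 4.03 normalized counts. These limits cover counting error only.

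The reads of these copies cannot be assigned with certainty. The transcripts of Amy2a2, Amy2a3 and Amy2a4 are identical over 3717 bases, and that of Amy2a5 is 98.36% identical to them. Amy2a3 stood at 0, 977 and 4.95 in S6k2-RK and at 109, 0 and 0 in Snd1-KI, overlapping, unlike the other copies. Summed over Amy2a2, Amy2a3, Amy2a4 and Amy2a5, the counts were 14374, 11355 and 15145 in S6k2-RK and 19723, 70670 and 70472 in Snd1-KI, without overlap (exact permutation p = 0.1). Snd1-KI replicate 1 lay close to S6k2-RK, and replicates 2 and 3 lay far above. Amy2a5 alone stood at 14352, 10378 and 15031 against 18216, 41536 and 68402 (log2 difference -1.51 ± 0.31 SE, adjusted p = 0.0783).

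Amy2b, the most abundant amylase gene here, is annotated as an unprocessed pseudogene, and its transcript is 97.89% identical to that of Amy2a2 over 1561 bases, so its reads are uncertain too. It had values in the other direction, 102642, 105222 and 114577 in S6k2-RK against 72580, 73056 and 82178 in Snd1-KI (log2 difference 0.50 ± 0.15 SE, adjusted p = 0.236). The 7 amylase genes summed to means of 123094 and 131635, with overlap (exact permutation p = 0.8). The Amy2a2 call ended without Snd1-KI replicate 2 or 3 (adjusted p up to 0.0772) and the Amy2a4 call without S6k2-RK replicate 3 or Snd1-KI replicate 1 or 3 (up to 0.132). Both also ended with robust empirical Bayes, Amy2a2 in a fit of all 9 libraries (0.141) and Amy2a4 with DESeq2 (0.0694).

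The start regions of Amy2a4 and Amy2a5 show how the copies differ outside the transcript. Both are the 200 bases before the annotated start in RefSeq (GRCm38.p6), at chr3:113291450-113291649 and chr3:113258700-113258899 on the minus strand. Capitals mark a stretch of 62 bases that both windows hold, at the end of the Amy2a4 window and at the beginning of the Amy2a5 window, so the annotated starts are placed at different points of related sequence. The windows of Amy2a2, Amy2a3 and Amy2a4 had 0 differences over 250 bases.
Amy2a4: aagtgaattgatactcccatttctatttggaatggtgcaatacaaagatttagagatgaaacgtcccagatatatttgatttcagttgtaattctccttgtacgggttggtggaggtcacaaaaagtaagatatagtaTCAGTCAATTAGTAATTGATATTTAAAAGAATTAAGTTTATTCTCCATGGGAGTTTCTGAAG
Amy2a5: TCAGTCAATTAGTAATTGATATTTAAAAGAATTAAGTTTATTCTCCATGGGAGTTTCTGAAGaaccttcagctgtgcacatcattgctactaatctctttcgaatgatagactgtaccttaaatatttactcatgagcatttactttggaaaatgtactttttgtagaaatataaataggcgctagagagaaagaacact

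**Figure D3:**
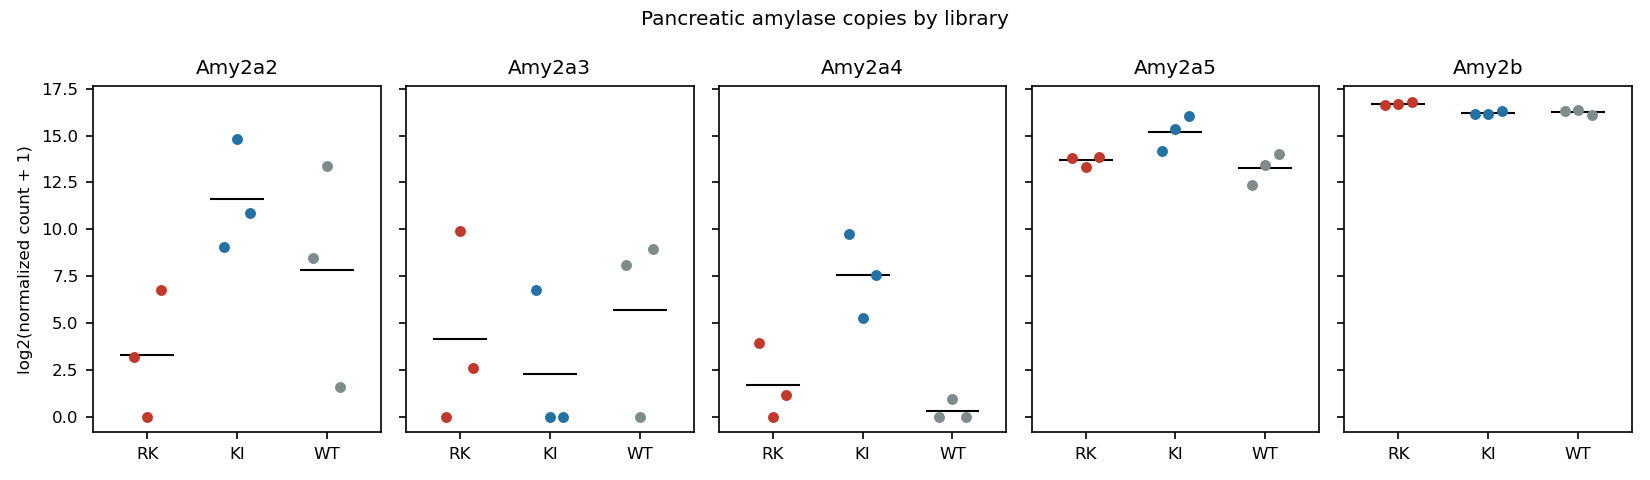
Level of 5 pancreatic amylase genes in each library, as log2(normalized count + 1), with 1 point per mouse and a line at the mean, for S6k2-RK (RK), Snd1-KI (KI) and WT. Amy2a2, Amy2a3 and Amy2a4 range from 0 to as much as 29096 normalized counts over the libraries, whereas Amy2b stays between 69784 and 114577.

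Nupr1, a small stress-induced nuclear protein that rises in pancreatitis, was higher in S6k2-RK. It stood at 22393, 21331 and 26038 in S6k2-RK, at 12866, 14453 and 9312 in Snd1-KI and at 9196, 9638 and 9641 in WT, a fold of 1.93 between the mutants (log2 difference 0.95 ± 0.15 SE, adjusted p = 0.0140). WT lay at the low end of Snd1-KI. The call ended without S6k2-RK replicate 3 or Snd1-KI replicate 1 or 3 (adjusted p up to 0.119) and held under equal library totals.

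The start region of Nupr1 is shown because the gene is a target of ATF4, the factor of the integrated stress response. It is the 200 bases before the RefSeq start (GRCm38.p6) at chr7:126625471-126625670 on the minus strand. Capitals mark ATTGCATCA, the reverse complement of TGATGCAAT, a composite element for C/EBP and ATF factors, whose first base lies 111 bases before the start. Of 32851 promoter windows, 48 hold this motif on either strand (0.146%).
Nupr1: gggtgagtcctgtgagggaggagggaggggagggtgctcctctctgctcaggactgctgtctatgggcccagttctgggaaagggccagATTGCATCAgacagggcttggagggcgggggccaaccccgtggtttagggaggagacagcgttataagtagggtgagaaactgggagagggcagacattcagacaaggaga

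Other genes of that response went in both directions. Over the list, Nupr1 included, 10 differences were positive and 11 negative. Without overlap, 3 were higher, Nupr1 included, and 2 lower, against 7.92% and 7.24% of all genes. The members named below are those of smallest p. Of 21 listed ATF4 and stress-response genes tested, Nupr1 was the 1 that passed, 3 others had an unadjusted p below 0.05 on the lower side, and the median was -0.04, which was 0.14 without S6k2-RK replicate 3. Ddit4, an mTORC1 inhibitor induced by stress, stood at 148, 192 and 121 against 247, 219 and 231, without overlap (log2 difference -0.62, adjusted p = 0.179). Atf3 (-0.77, adjusted p = 0.486) and the kinase gene Eif2ak4 (-0.37, adjusted p = 0.476) also had negative values. Among 30 chaperones and unfolded-protein genes, 0 passed with limma and 3 had an unadjusted p below 0.05, all higher.

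Metal genes had mostly positive values, and immediate-early genes had values of both signs. None of 11 metallothionein and zinc transporter genes passed, with 3 at an unadjusted p below 0.05 and higher, against 4.57% of all genes. Of the 11, 9 differences were positive and 2 negative, with a median of 0.19. Without overlap, 5 were higher and 0 lower, against 7.92% and 7.24% of all genes. Mt2 stood at 8892, 8932 and 10451 against 6749, 7773 and 6252 (log2 difference 0.45, adjusted p = 0.162), and all WT libraries were lower than both mutants, at 2314 to 3733. Of 16 immediate-early genes, 9 differences were positive and 7 negative. At an unadjusted p below 0.05, 5 were higher and 1 lower, against 4.57% and 5.52% of all genes. Myc stood at 254, 299 and 250 against 207, 182 and 213 (0.41, adjusted p = 0.274). Egr1, at 89.0, 29.5 and 138 against 26.0, 34.1 and 34.2, overlapped (1.17, adjusted p = 0.299).

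Genes of the translation machinery differed by list. Medians were positive for ribosomal proteins and translation factors, while 22 tRNA synthetases had a median of 0.04 with 8 values negative and 30 nucleolar genes a median of -0.03 with 18 negative. Tpt1, a translationally controlled protein whose mRNA carries the 5′ oligopyrimidine tract through which mTORC1 acts, stood at 25048, 22915 and 27170 in S6k2-RK and at 16140, 16650 and 16627 in Snd1-KI, a fold of 1.52 (log2 difference 0.60 ± 0.11 SE, adjusted p = 0.0486). WT, at 17843 to 20362, lay between the mutants and overlapped neither. Tpt1 shares 519 bases exactly with the pseudogene Tpt1-ps3. The call ended without S6k2-RK replicate 3 or any Snd1-KI library (adjusted p up to 0.277), under equal library totals and with edgeR.

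Cytosolic ribosomal protein genes, which carry the same tract, had a median log2 difference of 0.29. Of 77 tested, 0 passed with limma and 9 with DESeq2, while 52 were higher at an unadjusted p below 0.05 and none lower. Groups did not overlap for 44 of them, all higher, against 7.92% of all genes. Rpl12 stood at 7230, 5995 and 6561 against 4771, 5231 and 4318 (log2 difference 0.47, adjusted p = 0.132). Rps20 (0.40) and Rpl30 (0.48) had like values, with adjusted p of 0.132 and 0.137. Without S6k2-RK replicate 1, 3 passed, and without replicate 2, 9 passed. Under equal library totals the median was 0.06, with that of all genes at -0.23. As a share of all normalized counts, these genes took 1.61% ± 0.255 in S6k2-RK and 1.54% ± 0.119 in Snd1-KI (SD, n = 3 each), with overlap (exact permutation p = 0.9).

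Translation factors had 0 of 34 members passing, 12 higher at an unadjusted p below 0.05 and a median of 0.17. Under equal library totals the median was -0.06, with that of all genes at -0.23. Eif3e, a subunit of initiation factor 3, stood at 643, 629 and 680 against 483, 479 and 543, without overlap (0.38, adjusted p = 0.214). Eef1b2, an elongation factor subunit, differed by 0.39 (adjusted p = 0.23). Genes of the endoplasmic reticulum translocon, which passes secreted proteins into the lumen, had 0 of 30 passing and 10 higher at an unadjusted p below 0.05. Their median was 0.14, and 0.25 without S6k2-RK replicate 1. It was -0.10 under equal totals, again with that of all genes at -0.23. Srp9, of the signal recognition particle, stood at 588, 479 and 575 against 421, 371 and 364 (0.50, adjusted p = 0.137). Gm13736, a pseudogene chosen after its values were seen, passed at 0.86 (adjusted p = 0.0274), and its 253 bases are identical to Srp9. This call ended without S6k2-RK replicate 3 or any Snd1-KI library (adjusted p up to 0.266) and under equal library totals (0.092).

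Genes of the mTOR and insulin pathway had a median close to that of all genes. Of 33 tested, 0 passed with limma, 4 were higher and 1 lower at an unadjusted p below 0.05, and the median was 0.03. The members of smallest p, picked for that reason, included 3 substrates of S6 kinase. Rps6 stood at 5345, 5007 and 6026 against 4559, 4600 and 4093 (0.30, adjusted p = 0.312). Eif4b stood at 2283, 2276 and 2472 against 1931, 1904 and 1944 (0.28, adjusted p = 0.283). Pdcd4 stood at 1218, 1134 and 1460 against 1030, 1037 and 1063 (0.28, adjusted p = 0.404). In these 3 genes the groups did not overlap. Of the 33, 6 were higher and 1 lower without overlap, against 7.92% and 7.24% of all genes. Spliceosome genes, a process in which SND1 takes part, had 0 of 33 passing and a median of -0.07. Of these, 15 differences were positive and 18 negative. At an unadjusted p below 0.05, 5 were lower, against 5.52% of all genes, and 0 higher. The members named next are those of smallest p. Srsf2, a splicing factor of the SR family, stood at 238, 162 and 215 against 344, 249 and 357 (-0.62, adjusted p = 0.184), and Snrnp70, of the U1 particle, at 250, 146 and 225 against 329, 352 and 278 (-0.65, adjusted p = 0.188).

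**Figure D4:**
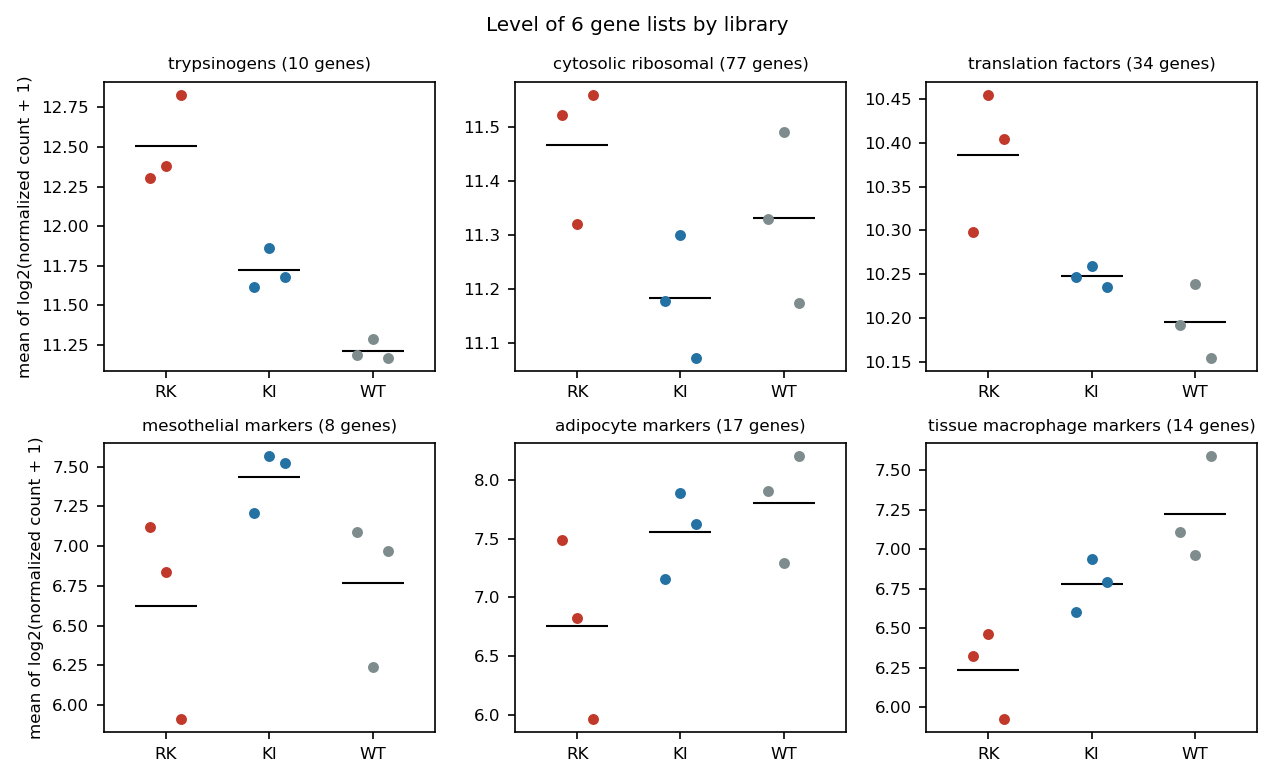
Mean of log2(normalized count + 1) over the tested members of 6 gene lists in each library, with 1 point per mouse and a line at the mean, for S6k2-RK (RK), Snd1-KI (KI) and WT. The 3 upper lists are higher in RK than in KI on average and the 3 lower lists are lower on average, and the axes do not start at 0.

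For a set of lower genes the WT libraries overlapped S6k2-RK and not Snd1-KI. BC034090, a protein-coding gene the file does not describe further, stood at 161, 123.5 and 158 in S6k2-RK, at 300.4, 305 and 361 in Snd1-KI and at 137, 132 and 159 in WT (log2 difference -1.13 ± 0.14 SE, adjusted p = 0.00318). Klk1b11, a kallikrein 1-related peptidase, stood at 119, 113 and 143 in S6k2-RK, at 259, 256 and 238 in Snd1-KI and at 100, 125 and 136 in WT (-1.01 ± 0.14 SE, adjusted p = 0.00512). On the same chromosome, Klk1b24 differed by -0.64 (adjusted p = 0.547) and Klk1, which had far higher counts, by 0.01, and both were named after their values were seen. Klk1b11 is 90.71% identical to Klk1b21 over 861 bases.

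A pair of serpin genes on chromosome 12 followed the same order. Serpina10, protein Z-dependent protease inhibitor, stood at 100, 76.5 and 77.9 in S6k2-RK and at 274, 265 and 163 in Snd1-KI (-1.43 ± 0.20 SE, adjusted p = 0.00464), with WT at 99.3 to 138. Serpina6, corticosteroid-binding globulin, is a low gene chosen after its values were seen, at 3.00, 12.1 and 4.95 against 48.5, 28.7 and 35.3 (-2.47 ± 0.46 SE, adjusted p = 0.0486), with WT at 1.80 to 10.8. They are neighbours, Serpina10 ending at 103631444 and Serpina6 starting at 103646630. The BC034090 call held when any library was left out. Those of Klk1b11 and Serpina10 ended without Snd1-KI replicate 2 (adjusted p = 0.0542), and that of Serpina6 without S6k2-RK replicate 3 or any Snd1-KI library (up to 0.277).

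Gm29216, chosen after its values were seen, stood at 3.999, 1.34 and 6.18 in S6k2-RK and at 55.4, 62.7 and 69.5 in Snd1-KI, with WT at 0.983 to 6.31 (-3.85 ± 0.44 SE, adjusted p = 0.00096). It rests on 10 reads against 210. Its 492 bases are a nuclear copy of mitochondrial mt-Co1, 99.79% identical over 483 bases, and mt-Co1 itself stood at 59321, 36418 and 52373 against 38744, 46468 and 47117. The groups of mt-Co1 overlapped, whereas those of Gm29216 did not. The call held when any library was left out.

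The remaining higher genes came from no list. Xlr3a, an X-linked gene described as lymphocyte-regulated, stood at 81.0, 160 and 69.2 against 33.8, 41.8 and 26.7 (1.50 ± 0.28 SE, adjusted p = 0.04996), and its transcript is 97.97% identical to that of Xlr3b over 3783 bases. Tc2n, a protein with tandem C2 domains, stood at 628, 711 and 770 against 421, 505 and 435 (0.63 ± 0.12 SE, adjusted p = 0.0486). Lars2, mitochondrial leucyl-tRNA synthetase, stood at 9654, 16438 and 19294 against 7897, 6543 and 7595 (0.99 ± 0.19 SE, adjusted p = 0.0486). Gm42418, named after its values were seen, overlapped between the groups but was high in the same S6k2-RK libraries as Lars2, at 65900, 116175 and 146640 against 56147, 54598 and 67124. Its part in the Lars2 result was not tested. All 3 calls ended without S6k2-RK replicate 3, without any Snd1-KI library and under equal library totals, and that of Xlr3a ended without S6k2-RK replicate 2 too.

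The naming rule also filled 7 places with genes that did not pass. Bex2 (0.82), Cibar1 (0.88) and Bet1 (0.58), a vesicle-fusion protein of the secretory route, had positive differences with an adjusted p of 0.0599 each. Pgf, placental growth factor (-1.49), Srrm2, a splicing cofactor (-0.56), and Igfbp5, an insulin-like growth factor binding protein (-0.91), had negative differences with the same adjusted p. Kmt2d, a histone methyltransferase, differed by -0.60 (adjusted p = 0.0659). Only genes whose groups did not overlap could fill these places, so the lack of overlap in all 7 is part of the rule.

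Markers of several cell types other than acinar cells had lower values in S6k2-RK, though none of their members passed. Among mesothelial markers, of the layer that covers the organ, all 8 tested differences were negative with a median of -0.82, and 7 had an unadjusted p below 0.05. Upk3b stood at 348, 299 and 164 against 403, 615 and 644, without overlap (-1.07, adjusted p = 0.0865). Lrrn4 (-1.14, adjusted p = 0.121) and Msln, mesothelin (-0.86, adjusted p = 0.241), had like values. The summed share of the list was 0.0137%, 0.0102% and 0.00539% in S6k2-RK and 0.0177%, 0.0206% and 0.0233% in Snd1-KI, without overlap (exact permutation p = 0.1). Leaving out S6k2-RK replicate 1 gave a median of -1.08 with 3 members passing, whereas leaving out replicate 3 gave -0.54 with 0 passing. Without S6k2-RK replicate 2, 3 passed. Under equal library totals the median was -1.05 with 0 passing, and that of all genes was -0.23.

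Adipocyte markers had 16 of 17 differences negative, a median of -0.63 and 8 with an unadjusted p below 0.05. Cfd, adipsin, stood at 307, 266 and 91.5 against 358, 905 and 535, without overlap (-1.51, adjusted p = 0.136). Adipoq, adiponectin, overlapped at 149.9, 88.6 and 27.2 against 127, 255 and 181 (-1.32, adjusted p = 0.264). Leaving out S6k2-RK replicate 1, the library nearest to Snd1-KI, took the number that passed from 0 to 7 and the median to -1.22. Leaving out S6k2-RK replicate 3 gave a median of -0.29 with 0 passing, and leaving out Snd1-KI replicate 3 gave -0.40. Equal library totals gave -0.87, with the median of all genes at -0.23. S6k2-RK replicate 3 was the lowest of the 6 libraries for both adipocyte and mesothelial markers.

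Tissue macrophage markers had 13 of 14 differences negative, a median of -0.50, and 8 with an unadjusted p below 0.05. The median was -0.29 without S6k2-RK replicate 3, and 2 members passed without replicate 2. Equal library totals gave -0.73, with the median of all genes at -0.23. Ptprc, the pan-leukocyte CD45 gene, stood at 19.99, 37.6 and 29.7 against 113, 55.8 and 66.3 (-1.38, adjusted p = 0.0877), with WT at 151 to 375. C1qa, a complement component of macrophages, stood at 142, 193 and 153 against 201, 284 and 245 (-0.57, adjusted p = 0.203). Marco, of lymph node and spleen macrophages, stood at 8.00, 12.1 and 4.95 against 30.3, 15.5 and 23.5, and at 269, 298 and 666 in WT (-1.39 between the mutants, adjusted p = 0.274). B-cell markers had few counts in both mutants. Ms4a1, the CD20 gene, stood at 9.996, 24.2 and 6.18 against 19.9, 27.9 and 23.5 and at 64.6, 153 and 100.3 in WT. All 8 tested B-cell differences were negative, with 2 at an unadjusted p below 0.05, and their median of -0.65 was -0.38 without S6k2-RK replicate 3. Of 20 T-cell markers 1 reached the count needed for testing. Summed, these 20 stood at 96.6 to 106 normalized counts in S6k2-RK, at 82.9 to 220 in Snd1-KI and at 524 to 1547 in WT, so the mutants overlapped and both lay below every WT library. Most of these marker values were lower in S6k2-RK, whereas most enzyme values above were higher. Whether the 2 are related over the libraries, and any part of one in the other, was not tested.

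Islet hormones had the opposite sign, with 9 of 10 differences positive, a median of 0.32, and 2 with an unadjusted p below 0.05. Gcg, glucagon, overlapped at 2829, 2136 and 5059 against 2610, 1320 and 2375 (0.63, adjusted p = 0.414). Ins2, an insulin gene, overlapped at 27114, 18410 and 33713 against 28103, 16257 and 19514 (0.31, adjusted p = 0.645). Smooth muscle and pericyte markers had a median of 0.24, with 1 of 12 at an unadjusted p below 0.05. Under equal library totals these medians were 0.08 and 0.01, with that of all genes at -0.23. The islet median was 0.06 without S6k2-RK replicate 3 and 0.11 without Snd1-KI replicate 2, against 0.56 and 0.58 without S6k2-RK replicate 2 and Snd1-KI replicate 1. The smooth muscle median was 0.06 without S6k2-RK replicate 2 and 0.43 without replicate 3. Endothelial (median 0.01), ductal (0.01) and fibroblast (-0.16) markers had 0 members passing with limma, and 0, 2 and 3 at an unadjusted p below 0.05.

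The Reg genes, secreted lectins of the stressed pancreas, differed widely between mice of the Snd1-KI group. Reg2 stood at 1033, 868 and 1084 in S6k2-RK and at 22312, 9472 and 556 in Snd1-KI, with WT at 8168, 8827 and 646 (-2.31 ± 0.82 SE, adjusted p = 0.333). Reg3a and Reg3b followed the same order of libraries, at 1791, 555 and 73.8 and at 6547, 2680 and 462 in Snd1-KI. Snd1-KI replicate 3 and WT replicate 3 were low in all 3 genes, so the groups overlapped and none of 6 Reg genes passed. Their median of -1.04 rested on single libraries, since it was -0.31 without Snd1-KI replicate 1 and -1.94, with 3 genes passing as lower, without Snd1-KI replicate 3. Reg1, the abundant member, had 200741, 133179 and 239242 against 154369, 173036 and 108422 (0.38, adjusted p = 0.604).

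Acinar identity genes had a median near that of all genes, and some members did not overlap between the mutants. Of 15 tested, 0 passed with limma and the median was 0.03, with 8 differences positive and 7 negative. At an unadjusted p below 0.05, 4 were higher and 1 lower, against 4.57% and 5.52% of all genes. Without overlap, 3 were higher and 1 lower, against 7.92% and 7.24%. Ptf1a, a subunit of the acinar factor PTF1, overlapped at 545, 412 and 695 against 428, 417 and 356 (0.43, adjusted p = 0.348). Xbp1, the secretory-cell factor of the unfolded protein response, stood at 4686, 4321 and 5411 against 4006, 4024 and 3796, without overlap (0.28, adjusted p = 0.365). Aqp8, a water channel of acinar cells, stood at 207, 212 and 300.5 against 167, 181 and 101, also without overlap (0.70, adjusted p = 0.231).

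Of 56 lists, 49 had at least 5 tested members, and 43 of these had no member that passed. The lists with members that passed were those of trypsinogens, granule proteins, chymotrypsins and elastases, amylases, stress-response genes and acinar injury genes, the last through Nupr1 too. Nuclear genes of oxidative phosphorylation had 36 of 39 differences positive with a median of 0.17, and mitochondrial ribosomal genes 53 of 77 with a median of 0.13. Under equal library totals both medians were negative, at -0.06 and -0.10, with that of all genes at -0.23. They were 0.11 and 0.08 without S6k2-RK replicate 3. Interferon genes had a median of -0.20 with 0 of 14 at an unadjusted p below 0.05.

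**Figure D5:**
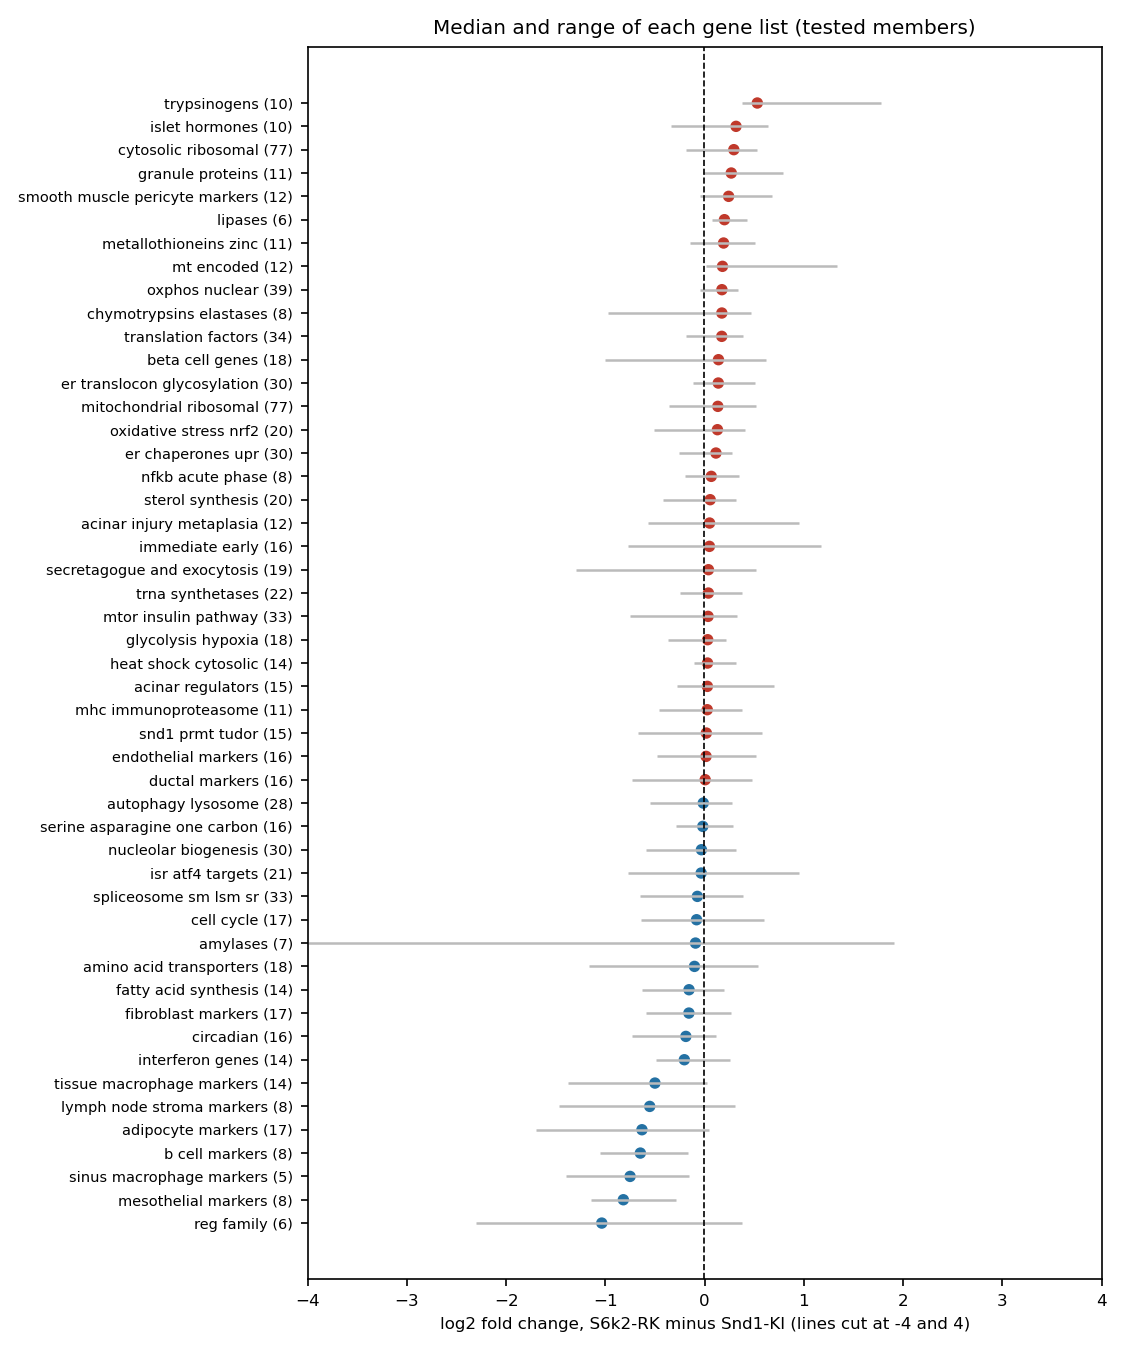
Median (point) and range (line, cut at -4 and 4) of the log2 difference between S6k2-RK and Snd1-KI over the tested members of the 49 gene lists, with the number tested in brackets and a dashed line at the median of all genes. Red points are above 0 and blue points below, with trypsinogens at the top (0.53) and Reg genes at the bottom (-1.04).

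Set beside WT, the 18 genes fell into groups by which mutant the WT libraries overlapped. WT overlapped Snd1-KI only for 9 genes, 8 of them higher in S6k2-RK (Xlr3a, Prss3l, Lars2, Nupr1, Spink1, Tc2n, Gm2663 and 1810009J06Rik) and 1 lower (Cela3a). It overlapped S6k2-RK only for 6 genes, all higher in Snd1-KI (Amy2a4, Serpina10, Serpina6, BC034090, Klk1b11 and Gm29216). It overlapped both for Amy2a2 and neither for Tpt1 and Gm13736. These overlaps describe ranges of 3 libraries and carry no test.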

How the data were processed

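The authors deposited 1 table of normalized count signal per gene for the 9 libraries. Per the submitters' processing notes it was made with DESeq2 on GRCm38 (mm10). Per the labels, libraries were strand-specific, paired-end with 150-base reads, with a stated depth of about 40 M pairs each. The aligner, annotation and counter are not given in the sources used here. Every value was a whole multiple of 1 step per library (100% of values, tolerance 1e-06), so reads were recovered for edgeR and DESeq2. The mutant libraries held 14068683 to 21034501 such reads. The deposited values were used as they are for the main test. Of 4669 IDs without a symbol, 3737 were named from the reference.

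Differences were tested with limma 3.58.1 (R 4.3.3; empirical Bayes with a mean-variance trend) on log2(value + 1) in the 6 libraries, for 11717 genes with a mean of at least 10, with Benjamini-Hochberg adjustment over all of them. Shares and gene numbers were tested with a two-sided exact permutation test. Alternatives used edgeR 4.0.16 and DESeq2 1.42.0. The fit was tested on simulated data. Changed genes were drawn from those with a mean of at least 50, and counts were drawn independently for each gene. Recovery was thus not measured for lower genes, or with a library that differs over many genes. It recovered 80 of 100 genes changed 2-fold and 18 of 100 changed 1.41-fold, and 4 unchanged genes passed, so smaller changes were mostly missed. Within groups, libraries differed beyond counting noise (a chi-square of 10.1 to 16.7 per degree), so none was counted as a copy. The labels number mice but do not say that groups were paired. The limma p-values rest on the spread between 3 mice per group, moderated toward a trend over all genes tested. The calls depend on that trend, since 0 genes passed without it (limma).

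The genes compared and the gene lists were chosen with earlier results of these data known. Named genes are the targeted genes and the 10 largest rises and falls. Rises and falls needed a mean of at least 50 and no overlap between the groups, as did the genes of smallest p that filled empty places. Named too are the 5 smallest p in each direction, and in lists with at least 5 tested genes the 4 or fewer of smallest p. Symbols of the Gm, Rik and pseudogene kind enter by the last part only. Near copies came from blastn 2.17.0 against GENCODE transcripts, and sequences from RefSeq.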

Additional observations from a re-analysis of the deposited data

How the results depend on the processing

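The number of genes that passed, 18, was 11 with a mean of at least 50, 42 with no filter on low values, 0 with no mean-variance trend (limma, 1001 at an unadjusted p below 0.05), 50 with array weights, 31 with edgeR and 66 with DESeq2, and the cause was not tested. The 10 higher genes became 6 with a pseudocount of 0.5, 5 with a mean of at least 50, 17 with no filter, 3 with equal library totals, 0 with no trend, 22 with array weights, 16 with edgeR and 39 with DESeq2. The 8 lower genes became 25 with no filter, 0 with no trend, 28 with array weights, 15 with edgeR and 27 with DESeq2. Leaving out 1 library gave 7 to 96 genes, 2 to 45 higher and 4 to 59 lower. Without S6k2-RK replicate 1, an alternative added after the data were seen, edgeR passed 100 genes (36 higher, 64 lower) and DESeq2 119 (61 higher, 58 lower). The difference in genes with any read was -716, and -257 for genes with at least 10 normalized counts.

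Among the 102 genes examined, 6 values changed sign, none of a gene that passed. Leaving out 1 library gave the Snd1 log2 fold change a range of -0.15 to 0.0706, with 0.00695 without Snd1-KI replicate 2, and on 5 libraries edgeR gave 0.0678 and DESeq2 0.0675. The Rps6kb1 log2 fold change ranged from -0.0964 to 0.0083 (without Snd1-KI replicate 3) and the Amy2a3 log2 fold change from -0.97 (without S6k2-RK replicate 2) to 4.17. The replicate numbers did not pair the mice, with correlations of same-numbered deviations of -0.0304, -0.0333 and -0.024, and a replicate block gave 6 higher and 9 lower genes, 12 of them shared with the 18. Of the 49 list medians, recomputed under every alternative, 52 values moved by more than the spread between mice and 1025 did not. Depth limits the statements on Amy2a2, Amy2a4, Gm29216 and Serpina6, which rest on 10 to 95 reads in S6k2-RK.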
